A study of Mus musculus with 12 samples.

Results

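The genes described here are 50 genes of mitosis and the mitotic spindle, taken by name from a list, and 47 of them had a row in the authors' table of 11834 genes. Ttk, Kif23 and Kif2c, a checkpoint kinase and a pair of kinesins, were not analysed here. RNA with a polyA tail was sequenced from the lactating mammary glands of C57BL/6 mice in lactation 1. One group was wild type (WT, 5 mice). The other was Btn1a1-/- (KO, 7 mice), which lacks butyrophilin 1a1, the membrane protein that coats secreted milk fat globules. Of the WT glands 3 were taken on day 10, 1 on day 9 (replicate 2) and 1 on day 11 (replicate 3). Of the KO glands 5 were taken on day 10, 1 on day 8 (replicate 3) and 1 on day 11 (replicate 4). There is 1 library per mouse. Per the labels, the wild-type mice were bred in harems and the mutant mice separately from pairs of heterozygotes, and 1 of 2 diets was fed. Which mouse ate which diet is not stated, so diet was not analysed here, and genotype and breeding scheme cannot be told apart. The title of the series speaks of epithelial cells that die and are renewed in lactation without Btn1a1. Mitotic genes bear on cell division, and which cells their RNA came from was not tested.

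A cell enters mitosis when cyclins A and B activate the kinase Cdk1. The chromosomes are compacted by condensin, attached to spindle microtubules through kinetochores under the watch of the spindle checkpoint, and separated once the anaphase-promoting complex (APC) marks cyclin B and securin for destruction. Most of these genes are transcribed in a burst late in the cell cycle, under the MuvB complex with B-Myb and the transcription factor Foxm1, so their RNA is low in tissue where few cells divide. Secretory cells of the mammary gland divide mainly in pregnancy and early lactation, when many become binucleate, and then make milk with little division.

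The targeted gene fits the labels in every library. Btn1a1 held 11.07 ± 0.09 log2 CPM (CPM being read counts scaled to the library total) in WT (SD, n = 5) and 5.63 ± 0.30 in KO (SD, n = 7), a log2 change of -5.43 (adjusted p = 5.2e-13, SE 0.13). The milk genes Csn2 and Wap stood at 17.27 and 16.54 log2 CPM in all 12 libraries, equal because the table is quantile-normalized. Depth, read roughly from the spacing of the tied low values, came to 17.1 M to 30.4 M reads in WT and 23.2 M to 34.7 M in KO. One CPM is therefore about 17.1 to 34.7 reads, and values under 0 log2 CPM rest on fewer.

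Mitotic genes as a group stood higher in KO glands. Of the 47 measured genes, 22 rose in KO and 0 fell at an adjusted p under 0.05 (limma, Benjamini-Hochberg over all 11834 genes), while 4.84% of all genes rose and 4.52% fell (9.36% in either direction). At an unadjusted p under 0.05 the counts were 41 higher and 0 lower, against 12.2% of all genes higher and 14.4% lower. All 47 fitted log2 changes were above 0, from 0.04 for Ckap5 to 2.71 for Ckap2, and their median was 1.37, against -0.03 over all genes of the table. A log2 change of at least 1 was reached by 37 of the 47, against 2.19% of all genes. How the authors filtered genes of low level is not given, and 35 of the 47 had a WT mean under 0 log2 CPM. Some may have entered the table through their KO level, so these counts describe the measured genes only. In bulk tissue, more cells in division and more RNA per dividing cell cannot be told apart.

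**Figure D1:**
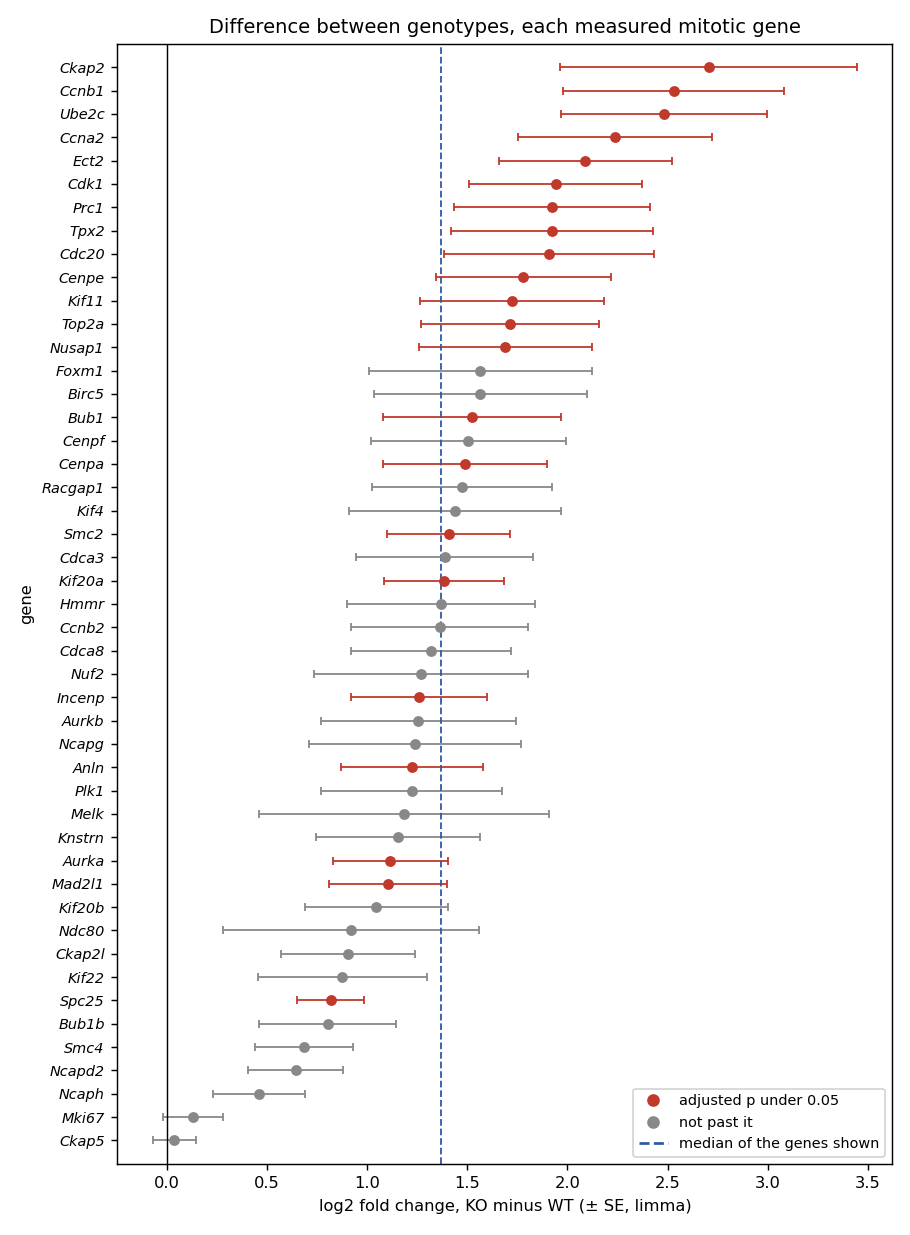
Log2 fold change of KO against WT on the x axis for each of the 47 measured genes, with bars of ± 1 SE from limma, in red where the adjusted p was under 0.05 and in grey otherwise; the dashed line is their median of 1.37. All points lie above 0, with Mki67 and Ckap5 nearest to it.

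How many genes passed depended on the fit and on single libraries, while the direction of the called genes did not. By the statistics of the authors' deposited table, 6 of the 47 passed the same threshold and 0 fell, against 4.55% of all genes higher, although the authors' log2 changes had a median of 1.35. The 6 are Ube2c, Aurka, Spc25, Kif20a, Ect2 and Smc2, and all 6 are among the 22. The authors' statistics are labelled limma voom, which weights values by precision, while the main fit here used no weights. The part of this in the 2 counts was not tested. Without WT replicate 1, 2, 3 or 5 the count of 22 became 8, 9, 10 and 10, and without KO replicate 1, 2 or 7 it became 10, 11 and 14. Without KO replicate 5 it became 41, against 5.41% of all genes. That library was the lowest KO library for 44 of the 47 genes, so leaving it out raises their fitted changes by construction. Of the 22 calls 8 held whichever library was left out: Ccnb1, Ccna2, Cdk1, Ube2c, Spc25, Kif20a, Ect2 and Smc2. With day 10 libraries alone (3 WT, 5 KO) limma called 0 of the 47, with 24 at an unadjusted p under 0.05 and a median log2 change of 1.12.

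One knockout gland, KO replicate 5, did not share the rise. The median difference of the 47 genes from the WT mean was 2.65 log2 in KO replicate 4, 2.31 in replicate 2, 1.55 in replicate 1, 1.51 in replicate 7, 1.00 in replicate 3, 0.89 in replicate 6 and -0.11 in replicate 5. The WT libraries lay between -0.23 and 0.29 on the same measure. KO replicate 5 was thus inside the WT range, and the other 6 were above it. Btn1a1 in that library was 5.79 log2 CPM, within the KO range of 5.10 to 6.02.

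The highest pair and the lowest of the KO glands were largely shared between genes, while the order between them varied. KO replicates 2 and 4 were the 2 highest KO libraries for 47 of the 47 genes, with replicate 4 highest for 38 and replicate 2 for 9. KO replicate 5 was the lowest KO library for 44. The third place varied, and replicates 1, 2 and 4 were the 3 highest for 24 genes. In KO replicates 2 and 4 all 47 genes lay above every WT library, in replicate 7 it was 45, in replicate 1 it was 44, in replicate 6 it was 38 and in replicate 3 it was 36. In KO replicate 5 it was 6 genes, while 28 lay within the WT range and 13 below it. The 2 groups did not overlap, KO being higher, for 6 genes, Cdk1, Incenp, Cenpe, Spc25, Kif20a and Smc2, against 2.69% of all genes. At least 6 KO libraries lay above every WT library for 31 genes, against 6.3% of all genes. Leaving KO replicate 5 aside, a choice made after its values were seen, the groups did not overlap for 31 genes, against 3.71% of all genes. The genes share these libraries and their normalization, so they are not independent of each other.

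**Figure D2:**
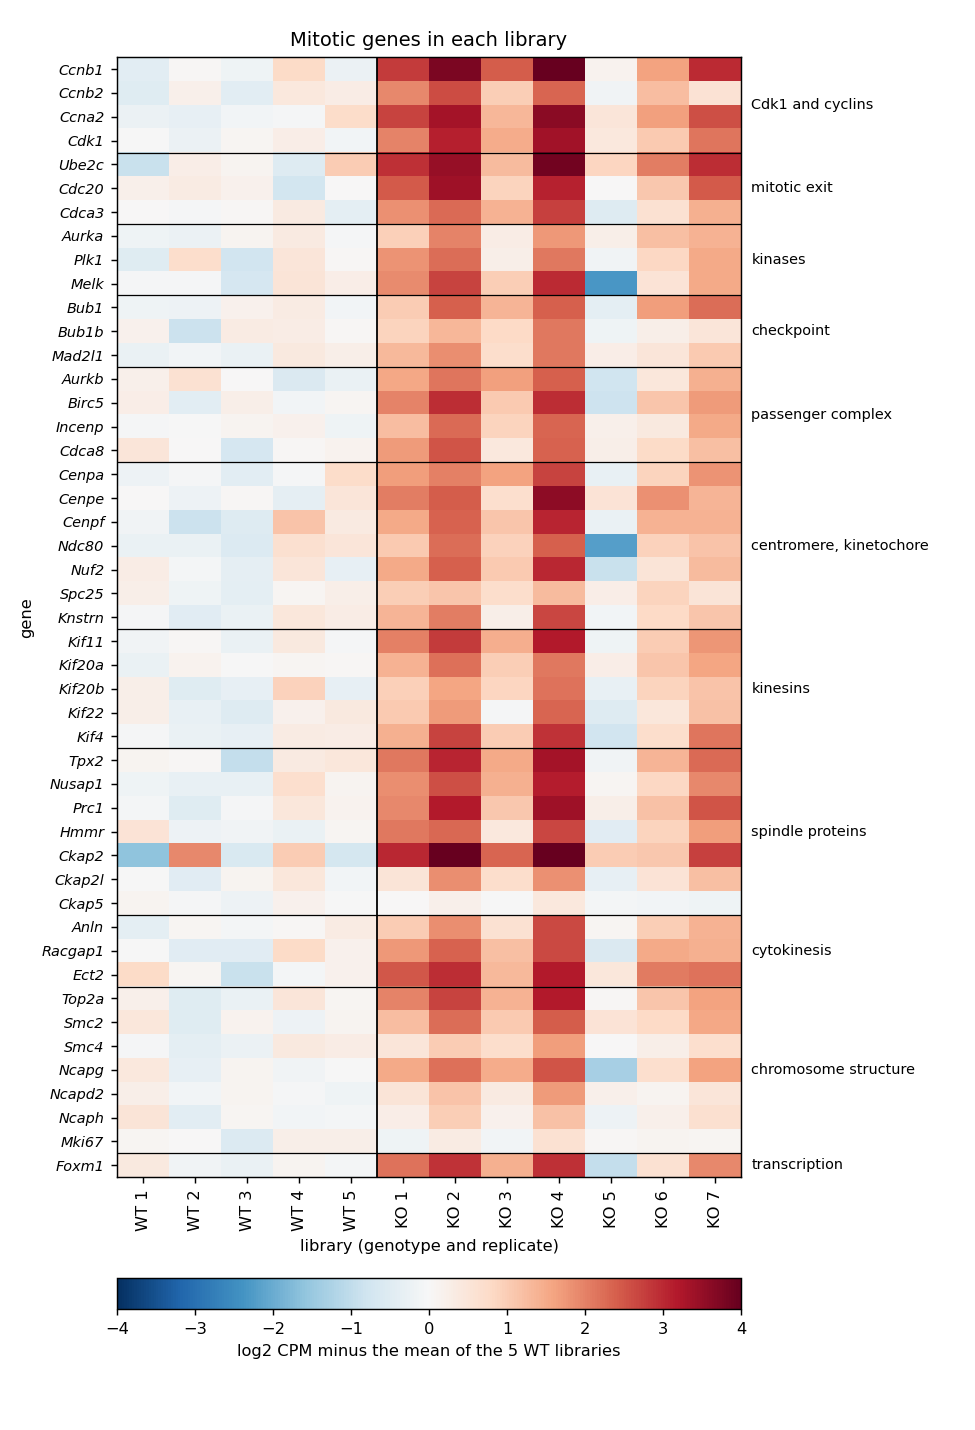
Each row is 1 of the 47 measured genes, grouped by role, and each column 1 library; colour gives log2 CPM minus the mean of the 5 WT libraries. KO replicates 2 and 4 are darkest throughout, KO replicate 5 resembles the WT columns, and the rows of Ckap5 and Mki67 stay pale.

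Promoters are shown because many of these genes are known targets of factors that read the cell-cycle homology region (CHR) and CCAAT boxes. A high share of these letters therefore comes with the choice of genes. The CHR is bound by MuvB and the CCAAT box by NF-Y. RefSeq windows (GRCm38.p6) of 250 bases before to 50 after the gene start were matched by symbol for 40 of the 47 genes. Each was searched on both strands for the CHR (TTTGAA), its palindromic variant (TTCGAA), the CCAAT box (CCAAT) and E2F-type letters (TTCCCGC and TTGGCGC, and likewise TTCGCGC and TTGCCGC). The 250 bases before the start follow for the gene of smallest adjusted p, of those with a window, among the cyclins with Cdk1, the exit factors, the kinesins and the chromosome proteins, and for Mki67. Kif20a, the kinesin of smallest adjusted p, had no matched window, so Kif11 is shown. They run 5′ to 3′ on the gene's strand with any of these letters in capitals.
Ccnb1: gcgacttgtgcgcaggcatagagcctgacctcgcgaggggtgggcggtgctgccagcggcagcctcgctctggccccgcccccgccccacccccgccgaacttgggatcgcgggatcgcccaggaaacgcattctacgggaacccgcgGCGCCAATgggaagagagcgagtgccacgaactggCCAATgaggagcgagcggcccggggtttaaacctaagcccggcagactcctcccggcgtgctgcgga
Ube2c: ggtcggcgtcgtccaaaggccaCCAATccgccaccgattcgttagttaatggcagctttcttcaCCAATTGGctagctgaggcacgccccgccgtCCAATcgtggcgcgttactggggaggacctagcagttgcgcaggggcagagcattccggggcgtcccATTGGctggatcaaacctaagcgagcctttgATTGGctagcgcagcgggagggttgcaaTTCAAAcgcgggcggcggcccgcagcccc
Kif11: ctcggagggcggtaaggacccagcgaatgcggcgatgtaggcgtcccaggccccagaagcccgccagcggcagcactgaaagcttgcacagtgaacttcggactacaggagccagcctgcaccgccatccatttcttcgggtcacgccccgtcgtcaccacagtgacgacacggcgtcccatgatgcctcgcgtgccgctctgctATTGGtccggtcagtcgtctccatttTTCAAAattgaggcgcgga
Smc2: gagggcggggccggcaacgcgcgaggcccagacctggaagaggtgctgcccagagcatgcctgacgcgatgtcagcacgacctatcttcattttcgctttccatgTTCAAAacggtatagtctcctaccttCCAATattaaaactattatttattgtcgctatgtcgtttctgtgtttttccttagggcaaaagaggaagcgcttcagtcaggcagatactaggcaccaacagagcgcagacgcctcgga
Mki67: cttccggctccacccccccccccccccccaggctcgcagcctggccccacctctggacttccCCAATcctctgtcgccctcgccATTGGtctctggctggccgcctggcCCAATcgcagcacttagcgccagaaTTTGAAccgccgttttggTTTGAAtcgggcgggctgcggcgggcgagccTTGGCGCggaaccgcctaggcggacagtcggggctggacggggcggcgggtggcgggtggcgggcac

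The printed windows lie at chr13:100786487-100786736 (minus strand) for Ccnb1, chr2:164769679-164769928 (plus) for Ube2c, chr19:37376132-37376381 (plus) for Kif11, chr4:52438971-52439220 (plus) for Smc2 and chr7:135716380-135716629 (minus) for Mki67. Positions count from the RefSeq start. GENCODE M21 begins Ube2c at chr2:164769898 and Ccnb1 at chr13:100786570, inside the printed windows, so letters near the start can lie within those genes. Ube2c holds 6 CCAAT boxes, a pair of which overlap, and a CHR whose first base is at -29 from the start. Kif11 holds a CCAAT box at -45 and a CHR at -19. Ccnb1 has CCAAT boxes at -99 and -67, the first overlapping E2F-type letters at -102, and no CHR letters in this window. Smc2 has CCAAT at -119 and CHR letters at -145, and a second CHR at 27 bases after the start that is not printed. Mki67, whose level did not pass the test, holds 3 CCAAT boxes, CHR letters at -116 and -98 and E2F-type letters at -67.

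Among the 40 windows, CHR letters were found in 30 (75.0%), against 11.6% of the 8874 genes of the table with a window and 18.1% of 27025 promoters. A CCAAT box was found in 30 (75.0%), against 38.6% of the genes of the table and 37.9% of all promoters. A CHR or its variant together with a CCAAT box was found in 28 (70.0%), against 5.66% and 7.7%. E2F-type letters were found in 8 (20.0%), against 17.4% and 9.69%, and the variant CHR in 3 (7.5%), against 2.08% and 1.57%. The genes that passed the test and those that did not held the CHR at 13 of 18 (72.2%) and 17 of 22 (77.3%). A match describes letters and is not evidence of binding.

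Cdk1 and the mitotic cyclins showed some of the largest rises, with 3 of 4 called. Ccnb1 encodes cyclin B1, the partner that drives Cdk1 into mitosis. It held -2.01, -1.53, -1.75, -0.82 and -1.82 log2 CPM in WT replicates 1 to 5 and ran from -1.44 (replicate 5) through a median of 1.20 to 2.42 (replicate 4) in KO. The 6 KO libraries other than replicate 5 were above all WT libraries. The log2 change was 2.53 (adjusted p = 0.0144, SE 0.55), or 5.78-fold. Ccna2, cyclin A2 of S phase and early mitosis, held -0.63, -0.72, -0.51, -0.45 and 0.34 in WT and 0.09, 2.17 and 3.23 as lowest, median and highest in KO, a log2 change of 2.24 (adjusted p = 0.0156, SE 0.48). Here too KO replicate 5 alone overlapped the WT libraries. Cdk1 itself held -0.27, -0.48, -0.19, 0.00 and -0.37 in WT and 0.16, 1.72 and 3.08 in KO, with no overlap and a log2 change of 1.94 (adjusted p = 0.0162, SE 0.43). Ccnb2, cyclin B2, had a log2 change of 1.36 (SE 0.44) that did not pass (adjusted p = 0.0650). Exons of Ccna2 overlap those of Exosc9 on the opposite strand, whether the libraries kept strand is not given, and Ccnb1 and Ccnb2 have processed pseudogenes that could share reads. Exosc9 itself ran from 2.26 to 2.56 log2 CPM in WT and from 2.34 to 2.65 in KO.

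Of the genes grouped as mitotic exit 2 of 3 were called, the third being Cdca3, a trigger of mitotic entry. Ube2c, the ubiquitin-conjugating enzyme of the APC, held -2.44, -1.29, -1.44, -2.07 and -0.54 log2 CPM in WT and -0.71, 1.36 and 2.32 as lowest, median and highest in KO. Its log2 change was 2.48 (adjusted p = 0.0114, SE 0.51), or 5.59-fold, and KO replicate 5 was the KO library among the WT values. Exons of Ube2c overlap those of Tnnc2, a skeletal muscle troponin gene, on the opposite strand. Tnnc2 held 1.79, 2.93, 3.99, 4.48 and 3.76 log2 CPM in WT and 2.54, 4.79 and 6.47 in KO, so reads of one counted to the other could matter, and this was not tested. Both were highest of all libraries in KO replicate 4 (Tnnc2 6.47, Ube2c 2.32) and lowest in WT replicate 1 (1.79 and -2.44). In KO replicate 5 Tnnc2 was high (5.51) and Ube2c low (-0.71), and in KO replicate 6 Tnnc2 was low (2.54) and Ube2c stood above all WT libraries (0.48). Cdc20, which activates the APC and is held back by the checkpoint, held -1.32, -1.19, -1.33, -2.25 and -1.49 in WT and -1.49, 0.94 and 1.88 in KO. It rose by 1.91 (adjusted p = 0.0354, SE 0.52), a call that ended without any single WT library or KO replicate 1, 2, 4 or 7 (adjusted p of up to 0.0801). Cdc20 overlaps Elovl1 on the opposite strand, which moved the other way, falling by 0.40 (adjusted p = 0.0123, SE 0.09). Cdca3 had a log2 change of 1.39 (adjusted p = 0.0633, SE 0.44).

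**Figure D3:**
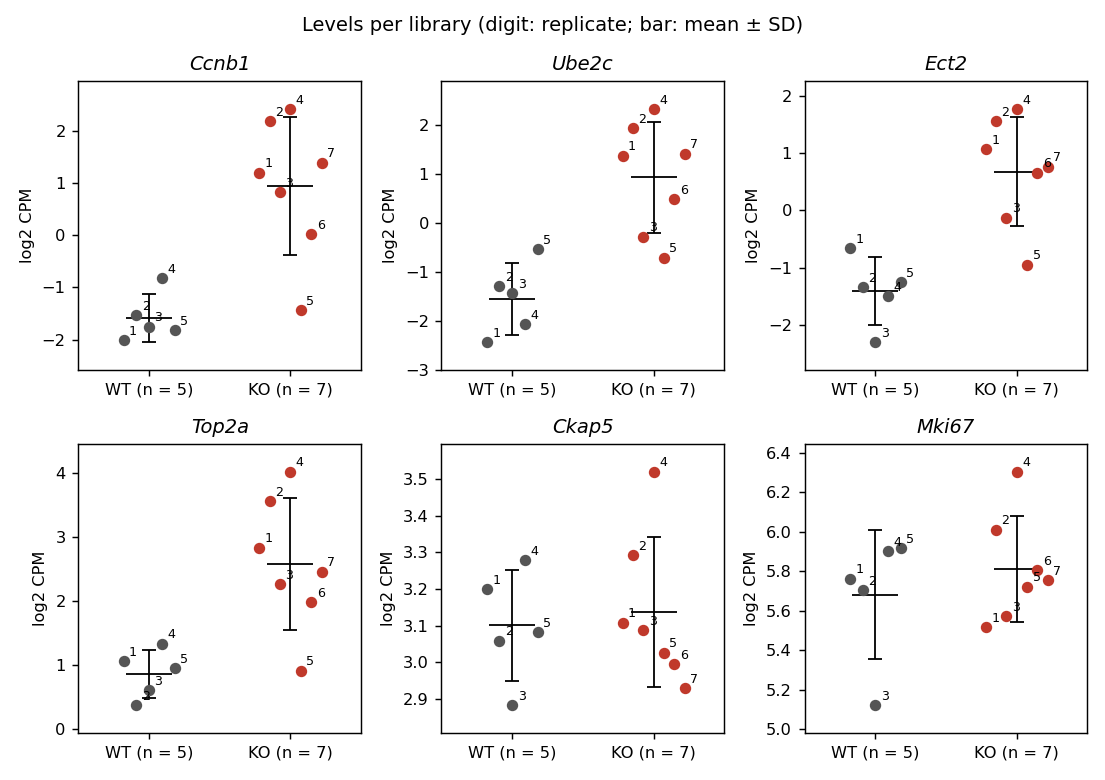
Log2 CPM of 6 genes by library, WT in grey (n = 5) and KO in red (n = 7), with the replicate number beside each point and bars of mean ± SD; the y axes differ. For Ccnb1, Ube2c, Ect2 and Top2a all KO libraries except replicate 5 lie above the WT libraries, and for Ckap5 and Mki67 the groups overlap.

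Among the mitotic kinases, Aurka, which builds the spindle poles, was the gene called. It held -0.31, -0.37, 0.00, 0.22 and -0.17 log2 CPM in WT and 0.11, 1.08 and 1.85 as lowest, median and highest in KO. Its log2 change was 1.12 (adjusted p = 0.0269, SE 0.29), and the call ended without WT replicate 1, 2 or 5 (up to 0.0696). KO replicates 3 and 5 lay within the WT range. Plk1, the polo-like kinase of entry and exit, and Melk, a kinase of dividing cells, had changes of 1.22 (adjusted p = 0.101, SE 0.45) and 1.18 (adjusted p = 0.318, SE 0.72). In KO replicate 5 Melk was at -3.94 log2 CPM, below all WT libraries, a level of very few reads.

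The checkpoint genes gave 2 of 3 higher. Bub1, a kinase that recruits the checkpoint to kinetochores, had a WT range of -2.02 to -1.50 log2 CPM and ran from -2.23 through -0.15 to 0.58 in KO, with replicate 5 below all WT libraries and the other 6 above them. It rose by 1.52 (adjusted p = 0.0443, SE 0.45), and the call ended without any 1 library except KO replicate 5 (up to 0.0969). Mad2l1, the inhibitor of Cdc20, held -0.12, 0.05, -0.12, 0.54 and 0.39 in WT and 0.40, 1.19 and 2.26 in KO. It rose by 1.11 (adjusted p = 0.0315, SE 0.30), a call that ended without WT replicate 1, 2, 3 or 5 or KO replicate 1 or 2 (up to 0.0823). Bub1b, the pseudokinase BubR1 of the inhibitory complex, had a change of 0.80 (adjusted p = 0.152, SE 0.34).

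The chromosomal passenger complex corrects faulty attachments and directs the cleavage furrow. Its scaffold Incenp held 0.06, 0.10, 0.21, 0.28 and -0.07 log2 CPM in WT and 0.32, 1.34 and 2.45 as lowest, median and highest in KO, with no overlap. Incenp rose by 1.26 (adjusted p = 0.0344, SE 0.34), and the call ended without any single WT library or KO replicate 1, 2 or 7 (up to 0.0793). The other members did not pass: Birc5 (survivin) at 1.57 (adjusted p = 0.0796, SE 0.53), the kinase Aurkb at 1.25 (adjusted p = 0.115, SE 0.49) and Cdca8 (borealin) at 1.32 (adjusted p = 0.0509, SE 0.40). All 3 passed without KO replicate 5, at adjusted p of 0.00588, 0.0156 and 0.0244. That library was singled out after its low values were seen, so these fits are not support for a rise. The 4 subunits therefore had fitted changes between 1.25 and 1.57, of which 1 was called.

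Among centromere and kinetochore genes 3 of 7 rose. Cenpe, the motor that carries chromosomes to the spindle equator, held -1.10, -1.34, -1.08, -1.50 and -0.64 log2 CPM in WT and -0.57, 0.70 and 2.44 as lowest, median and highest in KO. It rose by 1.78 (adjusted p = 0.0224, SE 0.44) with no overlap, and the call ended without WT replicate 1, 2 or 4 (up to 0.0542). Cenpa, the histone H3 variant of centromeres, rose by 1.49 (adjusted p = 0.0354, SE 0.41), a call lost without WT replicate 1, 2, 3 or 4 or KO replicate 1, 2, 3, 4 or 7 (up to 0.0847). Its KO replicate 5, at -1.20, lay among the WT values. Cenpf and Knstrn, proteins of the outer kinetochore and of its spindle contact, had changes of 1.51 (adjusted p = 0.0688, SE 0.49) and 1.16 (adjusted p = 0.0915, SE 0.41).

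Spc25 belongs to the Ndc80 complex, the rod that grips microtubules, whose subunits Ndc80, Nuf2, Spc24 and Spc25 occur in equal number in the protein complex. Spc25 held 2.46, 2.06, 1.81, 2.31 and 2.44 log2 CPM in WT and 2.50, 3.12 and 3.48 as lowest, median and highest in KO, with no overlap. It rose by 0.82 (adjusted p = 0.00941, SE 0.17), the smallest adjusted p of the 47 genes but a smaller change than the median of 1.37. Ndc80 and Nuf2 had changes of 0.92 (adjusted p = 0.380, SE 0.64) and 1.27 (adjusted p = 0.144, SE 0.53), and Spc24 of 1.37 (adjusted p = 0.132, SE 0.56). Levels per length divide the antilog of the mean log2 CPM by kilobases of all GENCODE M21 exons of a gene. That length can differ from the length of the transcripts expressed. WT glands held 1.46 CPM per kb of Spc25, 0.0839 of Spc24, 0.0520 of Nuf2 and 0.0461 of Ndc80. The subunits of this complex were thus far from equal in RNA level per length in WT, and Spc25 stayed highest in KO, at 2.57 against 0.217, 0.125 and 0.0872. KO replicate 5 held -3.94 log2 CPM of Ndc80, while the other KO libraries began at -0.82.

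Of 5 measured kinesins 2 rose. Kif20a, which brings the passenger complex to the central spindle, held -1.07, -0.65, -0.81, -0.73 and -0.78 log2 CPM in WT and -0.54, 0.59 and 1.41 as lowest, median and highest in KO, with no overlap. It rose by 1.38 (adjusted p = 0.0126, SE 0.30). Its exons overlap those of Cdc23 on the opposite strand, and Cdc23 ran from 2.86 to 3.14 in WT and from 2.88 to 3.19 in KO. Kif11, the motor that pushes spindle poles apart, held -0.37, -0.17, -0.48, 0.16 and -0.27 in WT and -0.41, 1.53 and 2.95 in KO. Kif11 rose by 1.72 (adjusted p = 0.0345, SE 0.46), and the call ended without any single WT library or KO replicate 1, 2 or 7 (up to 0.0824). Kif20b, a kinesin of late cytokinesis, and the chromosome-arm kinesins Kif22 and Kif4 had changes of 1.05 (adjusted p = 0.0817, SE 0.36), 0.88 (adjusted p = 0.198, SE 0.42) and 1.44 (adjusted p = 0.101, SE 0.53). Of these 3, Kif20b and Kif4 passed without KO replicate 5 (0.0164 and 0.0141), a library singled out after its values were seen.

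Spindle proteins gave 4 of 7 higher, and included the largest and the smallest change. Tpx2, which activates Aurka on microtubules, held -0.43, -0.48, -1.49, -0.17 and -0.07 log2 CPM in WT and -0.66, 1.57 and 2.79 as lowest, median and highest in KO, a rise of 1.92 (adjusted p = 0.0321, SE 0.51). Prc1, which bundles the central spindle, rose by 1.92 (adjusted p = 0.0290, SE 0.49), and Nusap1, a microtubule stabilizer, by 1.69 (adjusted p = 0.0277, SE 0.43). For each of these, KO replicate 5 was the KO library inside the WT range. The Tpx2 call ended without any single WT library or KO replicate 1, 2 or 7 (up to 0.0793), that of Prc1 without WT replicate 1, 2, 3 or 5 or KO replicate 1 (up to 0.0728), and that of Nusap1 without WT replicate 1, 2, 3 or 5 or KO replicate 1 or 2 (up to 0.0696). Ckap2, which nucleates spindle microtubules, held -4.86, -1.34, -3.86, -2.25 and -3.96 in WT and -2.23, -0.50 and 1.16 in KO. It rose by 2.71 (adjusted p = 0.0339, SE 0.74), and the call ended without WT replicate 1, 3 or 5 or KO replicate 1, 2, 4 or 7 (up to 0.0904). Its WT values rest on few reads and spread widely, with an SD of 1.42, and KO replicates 5 and 6 lay inside the WT range. Hmmr and Ckap2l, a hyaluronan-binding and a centrosomal spindle protein, had changes of 1.37 (adjusted p = 0.0856, SE 0.47) and 0.90 (adjusted p = 0.102, SE 0.33).

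Ckap5, a microtubule polymerase that also works outside mitosis, overlapped between the groups. WT libraries held 3.20, 3.06, 2.88, 3.28 and 3.08 log2 CPM, and KO libraries 2.93, 3.09 and 3.52 as lowest, median and highest. The log2 change was 0.04 (adjusted p = 0.863, SE 0.11). Its KO values still had replicates 4 and 2 on top.

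The cytokinesis genes gave 2 of 3 higher. Ect2, the exchange factor that switches on RhoA at the furrow, held -0.66, -1.34, -2.30, -1.50 and -1.25 log2 CPM in WT and -0.95, 0.76 and 1.77 as lowest, median and highest in KO. It rose by 2.09 (adjusted p = 0.0105, SE 0.43), or 4.25-fold, with KO replicate 5 inside the WT range and the other 6 above it. Anln, the furrow scaffold anillin, rose by 1.22 (adjusted p = 0.0431, SE 0.35), a call that ended without any single WT library or KO replicate 1, 2, 4 or 7 (up to 0.106). Racgap1, which works with Ect2, had a change of 1.47 (adjusted p = 0.0554, SE 0.45). It passed without KO replicate 5 (0.00368), a library singled out after its values were seen.

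Chromosome proteins gave 2 of 7 higher and a median log2 change of 0.68, the lowest median of the 11 roles, a difference that was not tested. Top2a, the topoisomerase that untangles sister DNA, held 1.06, 0.38, 0.61, 1.34 and 0.95 log2 CPM in WT and 0.91, 2.46 and 4.03 as lowest, median and highest in KO. It rose by 1.71 (adjusted p = 0.0324, SE 0.44), a call that ended without WT replicate 1, 2, 3 or 5 or KO replicate 1 or 2 (up to 0.0832). Smc2, an ATPase of condensin, held 1.08, 0.15, 0.76, 0.41 and 0.74 in WT and 1.16, 1.87 and 3.06 in KO, with no overlap and a rise of 1.41 (adjusted p = 0.0142, SE 0.31). Its partner ATPase Smc4 had a change of 0.68 (adjusted p = 0.0964, SE 0.24). The condensin I subunits Ncapg, Ncapd2 and Ncaph had changes of 1.24 (adjusted p = 0.150, SE 0.53), 0.64 (adjusted p = 0.102, SE 0.24) and 0.46 (adjusted p = 0.218, SE 0.23).

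Mki67, whose protein coats mitotic chromosomes and is the usual stain for dividing cells, did not separate the groups. WT libraries held 5.76, 5.70, 5.12, 5.90 and 5.92 log2 CPM, and KO libraries 5.52, 5.75 and 6.30 as lowest, median and highest. The log2 change was 0.13 (adjusted p = 0.623, SE 0.15). Per length its RNA was the highest of the 47 genes in both groups, at 5.10 CPM per kb in WT and 5.58 in KO, while Top2a held 0.202 and 0.663. KO replicates 4 and 2 were again the highest KO libraries. The genes with a high WT level per length after Mki67 were Spc25 (1.46), Smc4 (1.15), Ckap5 (0.907) and Ckap2l (0.542), and Spc25 was the 1 of these 5 to be called.

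Foxm1, the transcription factor that activates many of these genes late in the cycle, had a log2 change of 1.57 (adjusted p = 0.0933, SE 0.56). Its WT libraries ran from -1.33 to -0.66 log2 CPM, and the KO libraries from -2.00 (replicate 5) through 0.86 to 1.87. Replicate 5 lay below all WT libraries and the other 6 above them. Foxm1 passed without KO replicate 5, with a change of 1.99 (adjusted p = 0.00607), but that library was singled out after its values were seen. Foxm1 shares exons with Tex52 on the same strand, so their reads could not be split with certainty. In all, exons of 10 measured genes overlap those of another coding gene, 9 of them on the opposite strand, among them the called genes Nusap1 (with Oip5) and Prc1 (with Rccd1).

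Beyond these genes, 10 further lists of cell cycle genes were counted, chosen by role, in which 23 of 174 genes rose and 0 fell, with 63 higher and 5 lower at an unadjusted p under 0.05. The shares over all genes to read these and the list counts against are 4.84% called higher, and 12.2% higher and 14.4% lower unadjusted. Further spindle proteins gave 6 of 20 higher, with Tacc3, a spindle stabilizer, at 1.45 (adjusted p = 0.0162, SE 0.33) and Kifc1, a pole-focusing motor, at 1.49 (adjusted p = 0.0224, SE 0.37), and Pbk, a mitotic kinase, at 2.61 (adjusted p = 0.0226, SE 0.63). Genes of mitotic entry gave 3 of 14, with the centrosome kinase Nek2 at 1.80 (adjusted p = 0.0170, SE 0.40) and Mastl, the kinase that restrains phosphatase 2A, at 1.70 (adjusted p = 0.0252, SE 0.43), and Ensa, its substrate, at 0.29 (adjusted p = 0.0428, SE 0.08). Other checkpoint and kinetochore genes gave 1 of 19, near the share over all genes, though 7 were higher and 0 lower unadjusted. The call was Dsn1 of the Mis12 complex at 2.30 (adjusted p = 0.0421, SE 0.66). Its WT replicate 3 held -5.49 log2 CPM, a level of very few reads, and its WT SD was 1.81. Centrosome genes gave 2 of 23 (4 higher and 0 lower unadjusted), Plk4, the master of centriole copying, at 0.96 (adjusted p = 0.0142, SE 0.21) and Haus6 of augmin at 0.76 (adjusted p = 0.0206, SE 0.18).

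DNA replication genes gave 8 of 30 higher (20 higher and 1 lower unadjusted) with a median log2 change of 0.75. Chaf1a, a histone chaperone subunit, rose by 1.61 (adjusted p = 0.0157, SE 0.36), and the helicase subunits Mcm2 and Mcm4 by 0.94 (adjusted p = 0.02, SE 0.22) and 1.10 (adjusted p = 0.0203, SE 0.26). Chaf1b, the partner subunit of Chaf1a, went the other way at -0.45 and was not called (adjusted p = 0.138, SE 0.19). KO replicate 5 again had the lowest list median of the 7 KO libraries, at -0.17, with replicate 4 highest at 1.63. The constitutive APC subunits and cofactors gave 2 of 16 and a median of -0.01, with Anapc5 at 0.41 (adjusted p = 0.00415, SE 0.07) and Ube2s at 0.37 (adjusted p = 0.0316, SE 0.10). Cohesin with condensin II gave 0 of 17 by limma, with 2 higher and 0 lower at an unadjusted p under 0.05, near the 12.2% of all genes that were higher. The MuvB and DREAM subunits gave 0 of 12 (4 higher and 1 lower unadjusted) and the regulators of G1 and S phase 0 of 16 (4 higher and 0 lower unadjusted). Their smallest adjusted p were those of Ncapg2 (0.0749), Tfdp1 (0.102) and E2f8 (0.103). Of 7 genes of Cdk inhibition and p53, Mdm2 rose by 0.33 (adjusted p = 0.0132, SE 0.07), and Cdkn1b, the inhibitor p27, was at -0.26 (adjusted p = 0.217, SE 0.13). The list medians of the APC, cohesin with condensin II, MuvB and centrosome genes lay between -0.01 and 0.10. So did those of the Cdk inhibition and p53 genes (0.08) and of the other checkpoint and kinetochore genes (0.10).

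**Figure D4:**
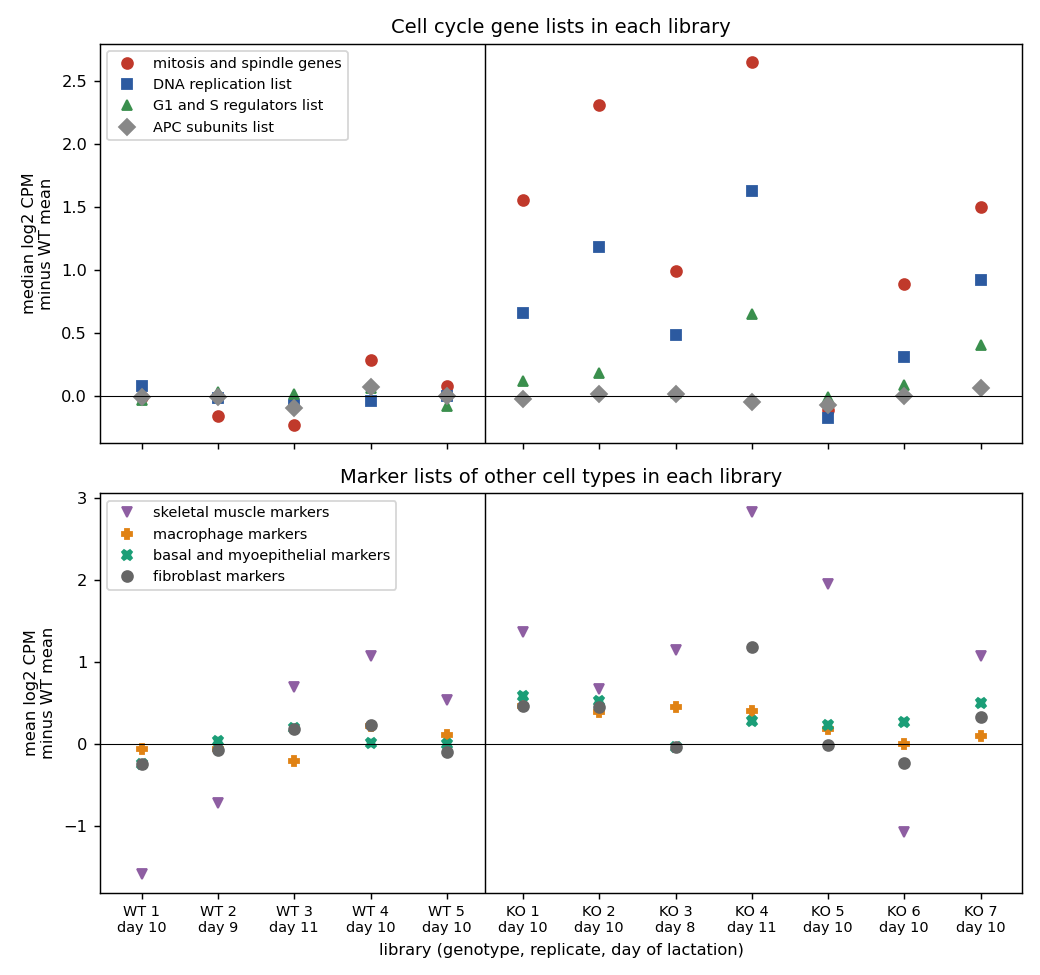
Upper panel: median log2 CPM minus the WT mean for the mitotic genes and 3 lists of other cell cycle genes, by library. Lower panel: mean log2 CPM minus the WT mean for 4 marker lists of other cell types. The mitotic and DNA replication medians are highest in KO replicates 4 and 2, while muscle markers are highest in KO replicates 4 and 5.

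Markers of some other cell types also differed between the groups. The 13 macrophage markers, 4 of which rose and 0 fell, summed to between 85.1 and 104 CPM in WT and between 90.9 and 182 CPM in KO. Among those not called, Mertk went the other way at -0.62 (limma adjusted p = 0.0894, SE 0.22). Fcgr1 (-0.01) and Itgam (-0.005) hardly differed. Of 10 basal and myoepithelial markers 6 rose and 0 fell, with summed levels of 517 to 695 CPM in WT and 582 to 897 CPM in KO. The 12 skeletal muscle markers, none called, summed to between 73.3 and 511 CPM in WT and between 109 and 1765 CPM in KO. KO replicate 4 had both the highest muscle sum (1765 CPM) and the highest mitotic median (2.65). KO replicate 5 had the second highest muscle sum of all libraries (875 CPM) with the lowest mitotic median of the KO libraries, and KO replicate 6 had the lowest KO muscle sum (109 CPM) with a mitotic median of 0.89. Fibroblast markers (0 of 7 called by limma) ran from 143 to 208 CPM in WT and 143 to 393 CPM in KO. Their KO sums were highest in replicate 4 (393 CPM), then 239 in replicate 2, 237 in replicate 1 and 227 in replicate 7, the same 4 libraries in the same order as for the mitotic median. Replicates 3 and 5 both held 164 CPM and replicate 6 held 143, and the part of these cells in the mitotic result was not tested. The 5 luminal progenitor markers, 1 of which rose, summed to 32.8 to 40.9 CPM in WT and 37.6 to 113 CPM in KO. Cd14, which is in both this list and the macrophage list and was not called (adjusted p = 0.185), made up 98.1 CPM of both sums in KO replicate 2, where each was highest. Without Cd14 the luminal progenitor sum was 9.73 to 13.0 CPM in WT and 13.6 to 23.4 CPM in KO, and the macrophage sum 58.0 to 78.0 CPM in WT and 67.1 to 96.2 CPM in KO. Endothelial markers gave 0 of 8 higher and 1 lower. Of 9 measured luminal markers, general and secretory together, 2 rose (Krt8 at 0.42 and Epcam at 0.30) and 1 fell (Esr1 at -0.62). The secretory markers Elf5 and Lalba were not called, and Csn2 and Wap, equal in all libraries through normalization, could not be. Of 8 adipocyte markers 1 rose and 0 fell, and of 4 measured erythroid markers 0 were called. Over all genes 4.84% rose and 4.52% fell. Of 8 neutrophil and 9 T cell markers, 0 had a value here, and 3 of 8 B and plasma cell markers did, none called. With the muscle score as a covariate limma called 2 of the 47 mitotic genes, Spc25 and Ect2, with 33 higher at an unadjusted p under 0.05 and a median log2 change of 1.26. With the macrophage score it called 0 of 47, with 13 higher and 0 lower unadjusted and a median of 0.79, and over all genes the calls went from 1108 to 21. Which cells the mitotic RNA came from was not tested.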

How the data were processed

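PolyA RNA of 12 mammary glands was sequenced in pairs after an Illumina TruSeq mRNA preparation, per the labels' protocols. Per the submitters' processing notes, the tools were limma 3.34.5, RSEM 1.3.0, STAR 2.5.2b, Trimmomatic 0.33 and bcl2fastq 2.17, and the builds mm10 and hg19 are named without a role. The authors deposited log2 CPM values per library that were quantile-normalized (67.1% of ranks agree within 0.01 log2 across libraries). The authors' deposited table also holds their log2 fold change, a signed fold change, a moderated t score, and a p-value with its adjusted p-value. Read counts were not used here, and total depth was estimated from steps shared by at least 8 genes between 0.5 and 8 CPM, which is rough.

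The deposited log2 values of all 11834 genes were fitted by genotype with limma 3.58.1 in R 4.3.3 (eBayes with trend and robust), and two-sided p-values were adjusted by Benjamini-Hochberg over all genes. The procedure was tested on simulated data. Replicates are separate mice. Members, lists, roles and tests were chosen with earlier results of these data known. Named genes are all measured members, Btn1a1, and up to 3 genes of smallest adjusted p from each further list, with all its calls where at most 5. Genes overlapping a member, Spc24, Chaf1b and single cell type markers were named after their values were seen. Python 3.11.15 and matplotlib 3.10.9 joined GENCODE M21 (GRCm38) by symbol, searched RefSeq promoter windows (GRCm38.p6) and drew the figures. Promoters were printed for the genes of smallest adjusted p with a matched window in 4 roles, none on chromosome 18. The alternatives were a replicate block, lactation day, day 10 alone, normalizations, filters, eBayes options, library weights, marker covariates, thresholds, the authors' statistics and leaving out each library. A fit without trend or robust was planned, and one with trend alone was added after seeing the data.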

Additional observations from a re-analysis of the deposited data

Results flagged for a closer look

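A library far from the rest of its group by Dixon's ratio at the 95% level was found in 6 of 98 groups of values tested, and chance flags about 1 in 20. In KO, replicate 5 held -3.94 log2 CPM of Ndc80, with the next lowest KO library at -0.82. In WT, replicate 5 held 0.34 of Ccna2 (next -0.45), replicate 4 held -2.25 of Cdc20 (next -1.49), replicate 2 held -0.93 of Bub1b (next -0.01) and replicate 3 held 5.12 of Mki67 (next 5.70). For Btn1a1, WT replicate 3 held 11.23 while the other WT libraries shared the value 11.03, as quantile normalization gives each rank a fixed value.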

How the results depend on the processing

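Over all alternatives 0 mitotic genes fell, and their median log2 change kept its sign, from 0.68 for the 9 genes whose mean reached 1 log2 CPM to 1.67 without KO replicate 5. The count of 22 higher genes became 13 of 26 when genes under a mean of 0 log2 CPM were left out, 3 of 9 under a mean of 1, 0 with day 10 libraries alone, 2 with the muscle score, 0 with the macrophage score, 6 in the authors' deposited table and 1 at an adjusted p under 0.01. The filters leave fewer genes and day 10 alone leaves fewer samples, and for the others the cause was not tested. Leaving out 1 library gave 8 to 41 higher mitotic genes, 559 to 1327 genes over all and 9 to 48 in the further cell cycle lists. Over all genes 1108 calls became 268 with day 10 alone, 275 with the muscle score, 21 with the macrophage score, 249 at an adjusted p under 0.01 and 186 with a log2 change of at least 1. The 23 calls of the further lists became 0, 1, 0, 1 and 14 in that order, and 12 where means under 1 log2 CPM were left out. Normalizing again, centring, cyclic loess, lactation day, library weights and other eBayes options gave 21 to 25 higher mitotic genes. A replicate block gave 14, keeping 11 of the 22. The numbers mark no shared animal or batch, and deviations of same-numbered libraries correlated between -0.17 and 0.213, so they were not taken as pairs. Ckap5 and Mki67, not called in any fit, changed sign. Ckap5 went to -0.12 with day 10 alone, -0.0224 with the muscle score and -0.16 with the macrophage score, and ranged from -0.0273 (without KO replicate 4) to 0.0810 with 1 library left out. Mki67 went to -0.10 with day 10 alone and -0.0380 with the macrophage score, and ranged from -0.0092 (without WT replicate 3) to 0.189. The calls of Btn1a1 held throughout. Low levels limit the precision, since 35 of the 47 genes had a WT mean under 0 log2 CPM.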
